A study of Mus musculus with 8 samples.

Results

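Binding of EBF1 and of Brg1 was examined at 10 genes for transcription factors of the ETS, Runx and Myb families in mouse pro-B cells. The genes are Ets1, Erg, Fli1, Spi1, Spib, Elf1 and Etv6 of the ETS family, Runx1 and Runx3 of the Runx family, and Myb. A ChIP-seq peak counted for a gene when its summit lay in the body of that gene in the GRCm38 annotation. A summit outside every protein-coding gene counted for the gene with the nearest bound, up to 100 kb away. Of 5757 peaks in all, 34 met this rule, namely 1 of the 312 EBF1 peaks in DMSO, 0 of the 5 EBF1 peaks after dTAG-13, 1 of the 234 Brg1 peaks in DMSO and 32 of the 5206 Brg1 peaks after dTAG-13.

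The series holds 8 samples, 4 of them immunoprecipitations with a peak list and 4 inputs that were not analysed here. All cells were pro-B cells transformed by A-MuLV, a retrovirus that carries the Abl oncogene, and in all of them an exogenous, modified EBF1 gene replaced the endogenous one. EBF1 was precipitated with the 1C antibody from the line EBF1-dTAG_C. Brg1, which powers the chromatin remodeller BAF by splitting ATP, was precipitated with ab110641 from the line EBF1-dTAG_N. Each line was treated with 0.5 µM dTAG-13, the small molecule that directs a dTAG-bearing protein to degradation, for 6 h, or with DMSO, which the titles list as 0 h and the treatment labels as 6 h. Each group was 1 library, which leaves every contrast of DMSO and dTAG-13 without replicates. Whether a line is 1 clone is not given in the sources used here. EBF1 itself was not mapped in the line used for Brg1.

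ETS proteins bind DNA through a conserved domain that recognises a GGAA core, and several of them, together with Runx1 and Myb, act in blood stem and progenitor cells and in lymphocytes. PU.1, the product of Spi1, and Spi-B form a subgroup, and the dose of PU.1 bears on the choice between myeloid and B-cell fates. Runx proteins bind as dimers with CBFβ, and Myb is needed for the growth and survival of early B-lineage cells. EBF1 acts with such factors at B-lineage enhancers, and Brg1 slides or evicts nucleosomes there.

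The labelled cell type was checked against marker genes of B cells, T cells and myeloid cells. Of 10 B-lineage marker genes, 5 had an EBF1 peak in DMSO, 6 a Brg1 peak in DMSO and 9 a Brg1 peak after dTAG-13, where 1.28%, 0.818% and 12.2% of all protein-coding genes had one. Of 10 markers each for T cells and myeloid cells, none had a peak in either DMSO list. With shares as low as 1.28% and 0.818% over all genes, most lists of 10 would have none, so this does not check the cell type. Peaks near a marker describe occupancy and not expression. After dTAG-13, 3 T-cell markers, Cd3d, Lck and Zap70, and 0 myeloid markers had a Brg1 peak, beside the same 12.2%. Fragments at each summit and the local background, in fragments per base, were recovered from the deposited values. The lowest background of a list was taken as a stand-in for its depth. It was 0.607 in the Brg1 DMSO list and 2.15 in the Brg1 dTAG-13 list, a ratio of 3.54.

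The member promoters in the promoter table that a Brg1 peak covered in part are shown first. The promoter table from RefSeq (GRCm38.p6) holds 12 start sites of 7 of the 10 genes. Ets1, Fli1 and Spi1 are not among them, so Brg1 at their starts could not be judged this way. Of the 12 windows of 250 bases before a start, 2 were overlapped by a Brg1 peak of the dTAG-13 list, those of Myb and Etv6, and none by a peak of the other lists. Among all 32851 promoter windows, 449 (1.37%) were overlapped. The Myb window is chr10:21160985-21161234 on the minus strand and the Etv6 window chr6:134035450-134035699 on the plus strand, each written 5′ to 3′ up to the base before the start, with the bases under the peak in capitals.
Myb: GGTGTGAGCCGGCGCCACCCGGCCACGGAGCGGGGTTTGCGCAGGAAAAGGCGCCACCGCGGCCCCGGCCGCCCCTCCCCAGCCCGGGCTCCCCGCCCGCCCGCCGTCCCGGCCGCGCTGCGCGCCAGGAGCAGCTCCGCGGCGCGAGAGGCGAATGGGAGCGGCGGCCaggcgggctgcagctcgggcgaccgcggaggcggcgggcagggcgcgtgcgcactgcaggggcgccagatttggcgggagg
Etv6: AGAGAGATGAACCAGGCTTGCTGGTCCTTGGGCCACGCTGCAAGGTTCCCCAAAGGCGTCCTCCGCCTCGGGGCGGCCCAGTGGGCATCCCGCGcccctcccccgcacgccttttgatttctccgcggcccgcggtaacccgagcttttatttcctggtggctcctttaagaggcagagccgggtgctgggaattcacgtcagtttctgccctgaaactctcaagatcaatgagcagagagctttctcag
In Myb the peak covered the 169 bases farthest from the start, and in Etv6 the 94 farthest. The windows were searched on both strands for CGGAAG (an ETS site), TGTGGT (Runx) and TAACGG (Myb), which 13.6%, 14% and 2.18% of all promoter windows hold. No match to these strings lay in these windows of Myb and Etv6. The shorter GGAA core of ETS sites does occur among the bases under the peak in both. In Myb it is on the strand shown (GCAGGAAAAGG), and in Etv6 on the opposite strand (GGTTCCCC as shown). CGGAAG is a strict form of an ETS site, so its absence does not show that ETS sites are absent. How many promoter windows hold GGAA was not counted. Among the 12 windows, 1 held a match to a searched string. It was the upstream start site of Runx3 (chr4:135120395-135120644), with TGTGGT on the opposite strand starting 134 and 126 bases before the start. The matches describe letters in the sequence and not binding.

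EBF1 was found at 1 of the 10 genes in DMSO, where 1.28% of 21887 protein-coding genes had a peak, and at none after dTAG-13, where 0.0228% had one. The gene was Erg, an ETS factor of blood stem cells and endothelium, whose body spans chr16:95359169-95586600. The EBF1 peak lay at chr16:95429985-95430187, inside the gene and 29267 bp downstream of the nearest of its 3 start sites in the promoter table (minus strand). It rested on 24 fragments at the summit, against a median of 26 in the list, and the authors' fold enrichment was 7.83, with a −log10 q of 9.97 and rank 130 of 312. No peak of the EBF1 dTAG-13 list overlapped it, as was so for all but 1.6% of EBF1 peaks in DMSO.

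A Brg1 peak was called in the same part of Erg in both conditions, at positions that did not overlap. In DMSO, Erg was again the 1 gene of 10 with a peak, where 0.818% of protein-coding genes had one. That peak, chr16:95428354-95428550, had 14 fragments at the summit, a fold enrichment of 8.13, a −log10 q of 8.15 and rank 72 of 234. After dTAG-13 the Brg1 peak of Erg was chr16:95427708-95427948, with 16 fragments, a fold enrichment of 5.26, a −log10 q of 5.47 and rank 1804 of 5206. The fold enrichments are each against their own library's background and are not comparable in size. With its fragments and background divided by the ratio of 3.54, the dTAG-13 peak had a −log10 p of 3.81. The smallest value in the DMSO list was 5.89. Whether the position of Brg1 differed between the conditions was not tested.

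The 3 peaks of Erg thus lay side by side within the gene and shared no base. The Brg1 summit of DMSO stood 1642 bp from the EBF1 summit, with 1434 bp between the peaks. The Brg1 summit after dTAG-13 stood 602 bp from that of DMSO, with 405 bp between the peaks, and 2244 bp from the EBF1 summit. Over the whole lists, 54.3% of Brg1 peaks in DMSO overlapped one after dTAG-13, and 14.1% of EBF1 peaks overlapped a Brg1 peak in DMSO and 17.9% one after dTAG-13. Of 234 Brg1 peaks in DMSO, 11 (4.7%) had a summit of the dTAG-13 list within 1 kb but no overlap. Of 312 EBF1 peaks, 7 (2.24%) had a Brg1 summit of DMSO within 2 kb but no overlap. These windows of 1 and 2 kb were not planned and lie just above the distances at Erg. The shares therefore do not measure how unusual Erg is. Erg was 1 of 37 protein-coding genes with peaks in the EBF1 DMSO list and in both Brg1 lists.

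**Figure D1:**
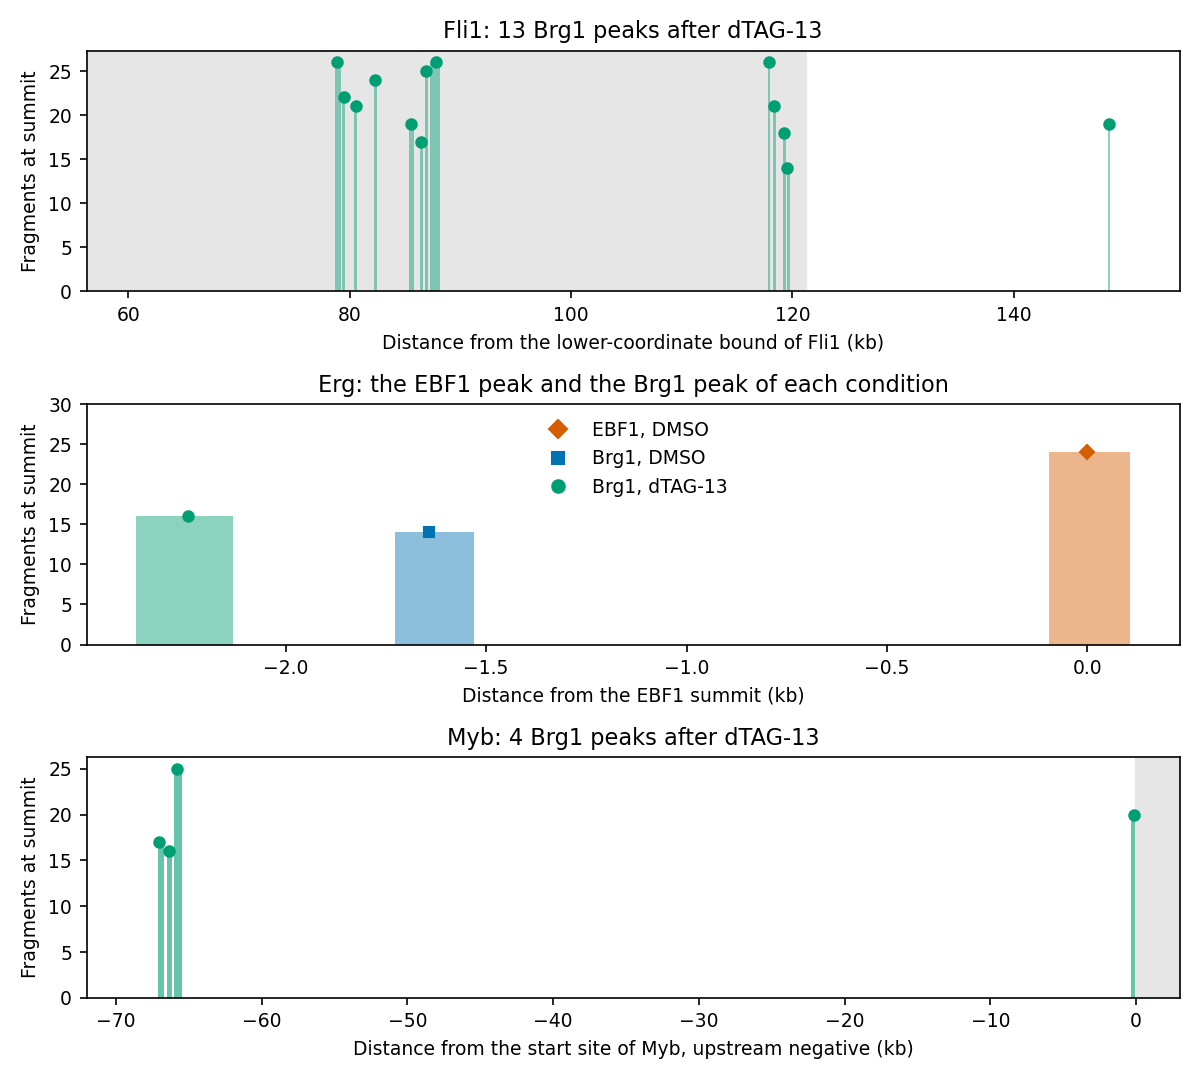
Peaks at Fli1, Erg and Myb by position (kb, horizontal) and fragments at the summit (vertical), with bar width showing peak width, points the summits and grey the gene body (the Erg panel lies wholly inside the gene and is not shaded). At Erg the peaks of EBF1 (24 fragments), Brg1 in DMSO (14) and Brg1 after dTAG-13 (16) stand apart, and at Fli1 the 13 peaks fall into a group of 8, a group of 4 and 1 outside the gene.

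After dTAG-13, Brg1 was found at 8 of the 10 genes (80%, exact 95% interval 44.4 to 97.5%), where 12.2% of protein-coding genes had a peak. The 10 genes were chosen with earlier results of these data known and are not a random sample. Neither this interval nor the density given below therefore tests whether Brg1 favours them. The 32 peaks were 0.615% of the list (0.421 to 0.867%), and the single DMSO peak was 0.427% of its list (0.0108 to 2.36%). The intervals of these shares overlap. None of the 32 overlapped a Brg1 peak of DMSO, where 2.42% of the whole list did, and none overlapped an EBF1 peak, where 1.09% did. For 0 of 32 peaks the exact 95% interval reaches up to 10.9%, so these shares cannot be told from those of the whole list. The members differ in length, from a body of 6.09 kb at Spib to 234 kb at Etv6. Counting the body and the stretch for which a gene is the nearest, the 10 genes cover 1.86 Mb and held 17.2 peaks per Mb, against 2.5 over all protein-coding genes, and 11.3 without Fli1.

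**Figure D2:**
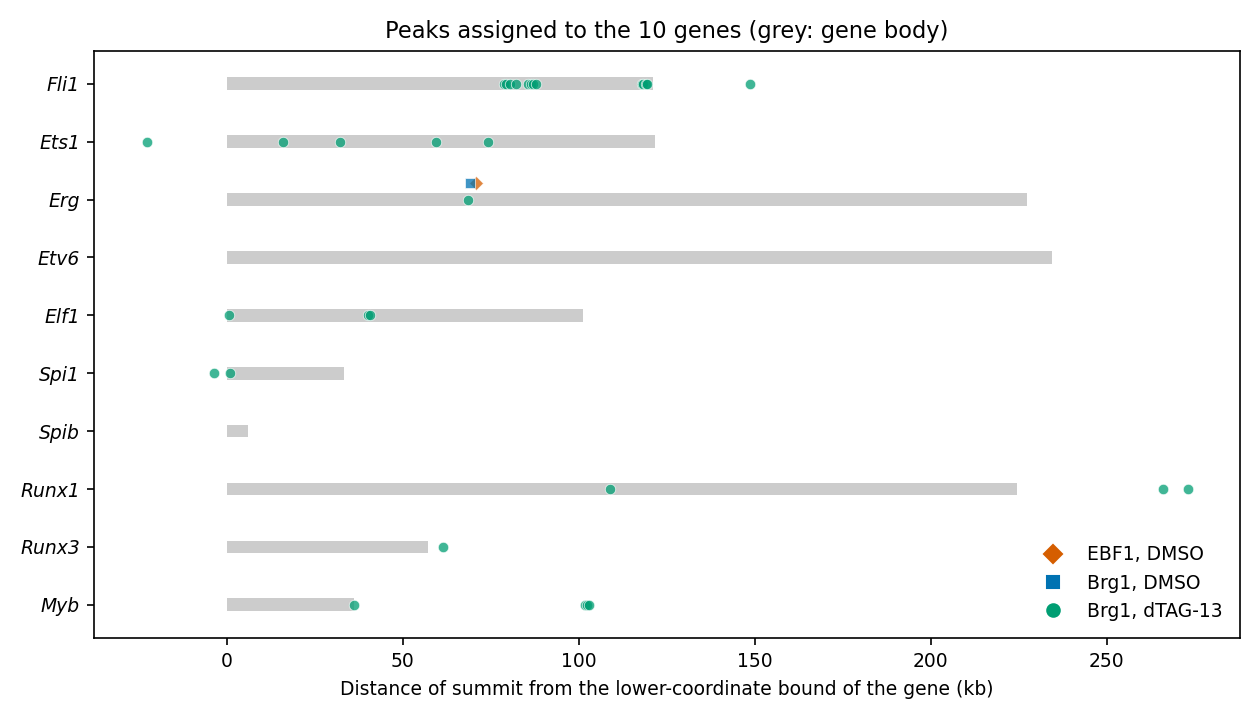
Summits of all 34 peaks by distance in kb from the lower-coordinate bound of each gene (horizontal), with the gene body in grey. EBF1 and Brg1 peaks of DMSO appear at Erg alone, and Brg1 peaks after dTAG-13 at 8 genes, most of them at Fli1 (13) and Ets1 (5).

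The 32 peaks were close to the whole list in median fold enrichment and above it in median −log10 q. They had 13 to 40 fragments at the summit with a median of 20, against 18 over all 5206 peaks, and a median fold enrichment of 4.42, against 4.45. Their median −log10 q was 5.49, against 4.52. By −log10 p, 20 of the 32 stood above the middle of the list, and their median percentile was 65.2. The median local background was 3.81 fragments per base, against 3.09 over all peaks. Of the 32 summits, 22 lay inside a gene (68.8%, 50 to 83.9%), where 52.1% of the list did, and 3 within 1 kb of a gene bound (9.38%, 1.98 to 25%), where 18.6% of the list did. Another summit within 10 kb was present for 21 of 32 (65.6%, 46.8 to 81.4%), where it was for 47% of the list. Fli1 alone, with 13 of the 32 peaks, held 12 of the 22 summits inside a gene. It also held 13 of the 22 peaks with a background above the list median, and its groups count among the close neighbours. The differences in position, local background and close neighbours thus lean on 1 gene. The higher standing by −log10 p does not, since the Fli1 peaks had a median percentile of 51.9, below the 65.2 of all 32. The intervals treat each summit as independent, which grouped summits are not.

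**Figure D3:**
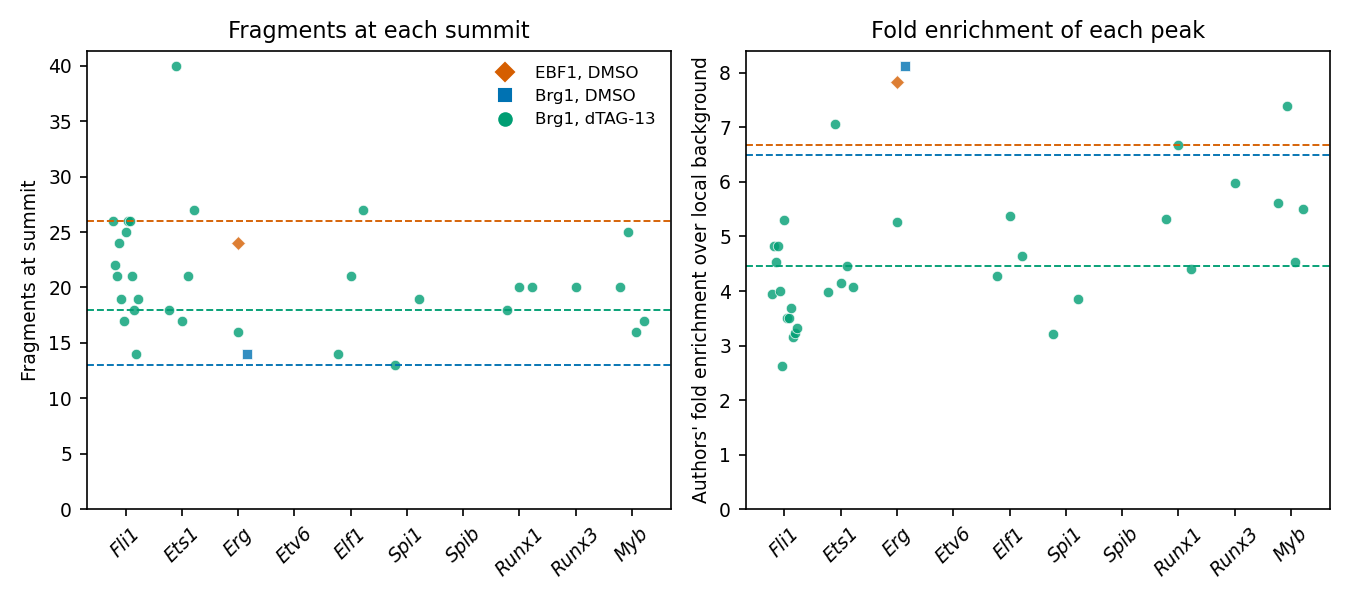
Fragments at the summit (left) and the authors' fold enrichment (right) of each peak by gene, with dashed lines at the median of each list. The Brg1 peaks after dTAG-13 run from 13 to 40 fragments, the highest being 1 at Ets1, and Fli1 holds many peaks of low fold (2.62 to 5.31).

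Fli1 and Ets1 are neighbours on chromosome 9, 92.8 kb apart, and together held 18 of the 32 Brg1 peaks. Fli1 (chr9:32422204-32543432), an ETS factor of haematopoietic progenitors and megakaryocytes and close in sequence to Erg, had 13. Of all protein-coding genes, 1 had more, Foxp1 with 15 in a region of 747 kb, and Rad51b had as many in 651 kb, while the region of Fli1 measured 179 kb. The density at Fli1 was 7.26 peaks per 100 kb.

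The peaks of Fli1 came in groups. Of them, 8 summits lay within 9008 bp, at chr9:32500841-32510372, with 17 to 26 fragments each. The first 4 were chr9:32500841-32501418, chr9:32501524-32501814, chr9:32502586-32502851 and chr9:32504374-32504673, with 26, 22, 21 and 24 fragments and fold enrichments of 3.94, 4.82, 4.54 and 4.82. The other 4 were chr9:32507599-32508020, chr9:32508554-32508811, chr9:32508964-32509244 and chr9:32509455-32510372, with 19, 17, 25 and 26 fragments and fold enrichments of 4, 2.62, 5.31 and 3.51. When summits of the whole list were joined where the next lay within 5 kb, this was the largest of 4071 groups. By p, the strongest of the 8 (fold enrichment 5.31) ranked 673 of 5206 and the weakest (2.62) ranked 5183. The group was thus made up of many peaks of middling strength, and neighbouring summits in 1 stretch are not independent sites.

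A second group of 4 lay at chr9:32539958-32542012, 1.7 to 3.31 kb inside the upper bound of Fli1, with 26, 21, 18 and 14 fragments. Its peaks were chr9:32539958-32540198, chr9:32540420-32540714, chr9:32541347-32541596 and chr9:32541716-32542012, with fold enrichments of 3.51, 3.68, 3.15 and 3.23. The last peak, chr9:32570680-32570908, lay 27.4 kb outside the gene towards Ets1, with 19 fragments and a fold enrichment of 3.32. All 13 stood on a local background above the list median of 3.09 fragments per base (3.64 to 6.7), and its part in their number was not tested. Fli1 had no peak in DMSO, where the nearest Brg1 peak was 2762 kb from the gene, and the nearest EBF1 peak was 9965 kb away.

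Ets1 (chr9:32636241-32757820), a factor of lymphocyte development, had 5 Brg1 peaks after dTAG-13, spread over 97034 bp. Among them was the strongest of all 32. It lay at chr9:32652222-32652544, 16.1 kb inside the lower bound, with 40 fragments, a fold enrichment of 7.06, a −log10 q of 18 and rank 60 of 5206. The others within the gene, at chr9:32668469-32668673, chr9:32695529-32695763 and chr9:32710327-32710718, had 17, 21 and 27 fragments and fold enrichments of 4.14, 4.45 and 4.08. The fifth, chr9:32613433-32613760, lay between the genes, 22.7 kb from Ets1 and 70.1 kb from Fli1, with 18 fragments. Neighbouring summits inside Ets1 were at least 14.9 kb apart, where Fli1 had dense groups. The nearest Brg1 peak of DMSO was 2548 kb from Ets1.

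**Figure D4:**
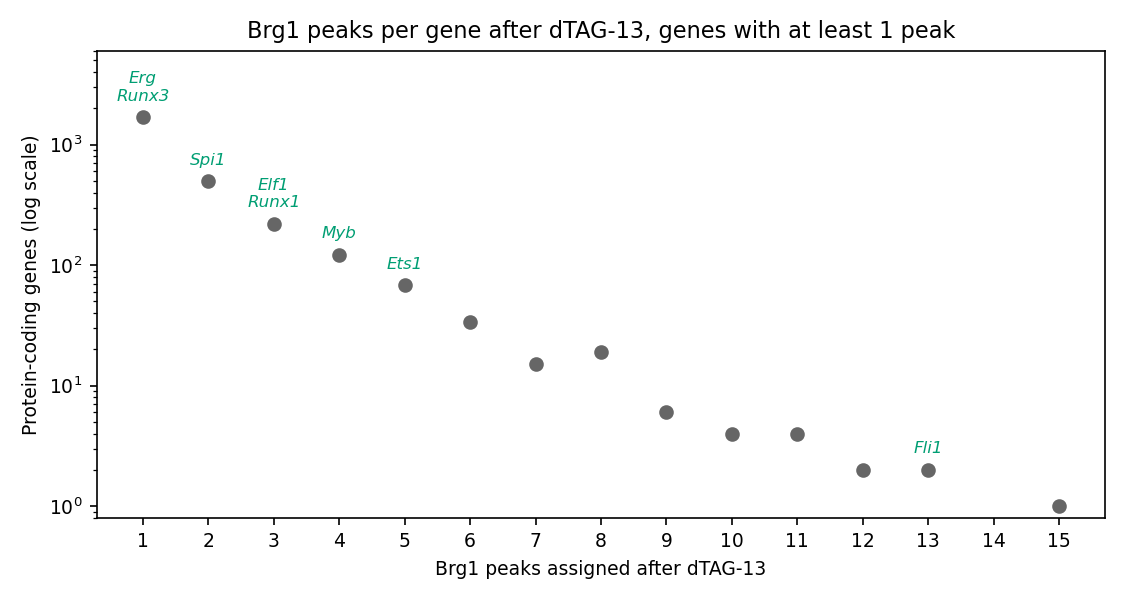
Number of protein-coding genes (vertical, log scale) by the number of Brg1 peaks assigned to them after dTAG-13 (horizontal), with the members named at their number. Fli1 stands at 13 with 1 other gene, and 1 gene lies beyond it.

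Elf1 (chr14:79481174-79582491), an ETS factor of lymphoid cells, had 3 Brg1 peaks after dTAG-13. The first, chr14:79481896-79482136, lay 800 bp downstream of the first start site, with 14 fragments and a fold enrichment of 4.27, and stood 0.726 kb from the bound of the neighbouring gene Wbp4. The other peaks, chr14:79521196-79521663 and chr14:79521811-79522602, formed a pair 651 bp apart, 5689 and 6340 bp downstream of the second start site, with 21 and 27 fragments. This pair lies over the pseudogene Gm9243 within Elf1, and the stronger peak had rank 866 of 5206.

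Spi1 (chr2:91082374-91115759) had a pair of weak Brg1 peaks near its lower bound. The one inside, chr2:91082985-91083336, stood 0.886 kb from that bound, with 19 fragments and a fold enrichment of 3.86. The one outside, chr2:91078685-91078969, stood 3.68 kb from it, with 13 fragments, a fold enrichment of 3.22 and rank 5054 of 5206. The region of Spi1 is short, 40.5 kb, so the pair gave 4.93 peaks per 100 kb, the next highest density of the 10 genes after Fli1.

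Spib and Etv6 had no assigned peak in any list. Spi-B is the close relative of PU.1 in B cells, and Etv6 is a repressor of the ETS family. For both, a Brg1 peak after dTAG-13 lay just outside the rule. The Etv6 peak, chr6:134035111-134035543, covered part of its promoter, as shown above, with its summit 245 bp from the start of Etv6 but 143 bp from the bound of Gm46977, to which it was assigned. It had 18 fragments, a fold enrichment of 5.41 and rank 1320 of 5206. The peak nearest Spib, chr7:44533926-44534550, was 2.18 kb from it, inside Pold1, a subunit of DNA polymerase delta, with 19 fragments and a fold enrichment of 3.86.

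Runx1, a factor of blood stem cell emergence and B-cell development, is read from a distal and a proximal promoter. Its body is chr16:92601466-92826074 on the minus strand, with start sites at 92826074 and 92697329. Of its 3 Brg1 peaks after dTAG-13, chr16:92710099-92710366 lay between them, 12.9 kb upstream of the proximal start, with 18 fragments and a fold enrichment of 5.32. The others lay upstream of the distal start, by 41301 and 48354 bp, both with 20 fragments each. The nearer of them, chr16:92867025-92869304, was 2280 bp wide, and 2 of 5206 peaks were as wide or wider, itself included. Its summit, 350 bp from one edge, had a fold enrichment of 6.68 and rank 524, and the farther one, chr16:92874292-92874601, had 4.4. None of these peaks was at a start site of Runx1, whose nearest Brg1 peak in DMSO was 2602 kb away and whose nearest EBF1 peak was 855 kb away.

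Runx3 (chr4:135120645-135177990), which represses Cd4 in T cells and acts in mature lymphocytes, had 1 Brg1 peak after dTAG-13. It was chr4:135181936-135182216, 4093 bp past the end of the gene, with 20 fragments, a fold enrichment of 5.98 and rank 763 of 5206. Of the 9 members without an EBF1 peak, Runx3 had the nearest one, 165 kb from the gene.

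Myb (chr10:21124930-21160984, minus strand) had all of its 4 Brg1 peaks outside the gene, on the upstream side. The promoter peak, chr10:21161066-21161295, had its summit 165 bp upstream of the start, with 20 fragments, a fold enrichment of 5.61 and rank 937 of 5206. The other peaks formed a group 65.8 to 67 kb upstream, in the stretch between Myb and Hbs1l that is known to hold Myb enhancers, and over the long noncoding RNA gene Gm33671. They were chr10:21226420-21226981, chr10:21227128-21227451 and chr10:21227672-21228073, with 25, 16 and 17 fragments. The first of them, with a fold enrichment of 7.4 and a −log10 q of 12.2, ranked 224 of 5206 and was the highest of the 32 by fold enrichment. Myb thus had Brg1 peaks both at its promoter and at a distal group, and neither was found in DMSO, where the nearest Brg1 peak was 22670 kb from the gene.

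The absence of these peaks from the DMSO list was set beside its depth. With fragments and backgrounds divided by 3.54, 2 of the 32 peaks (6.25%, 0.766 to 20.8%) still reached 5.89, the smallest −log10 p among the DMSO peaks, where 5.13% of the whole dTAG-13 list did. They were the Ets1 peak of 40 fragments, with a −log10 p of 7.93 after scaling, and the Myb peak of 25 fragments, with 6.14. These were also the 2 member peaks among the 234 highest of the dTAG-13 list, a length equal to that of DMSO. At that length 0.886% of protein-coding genes had a peak. The other 30, the 13 of Fli1 included, came out below that value, the highest of them being the wide Runx1 peak with 5.08. The scaled values are expected ones, which carry no counting scatter and rest on the ratio of lowest backgrounds, so peaks near 5.89 on either side cannot be told apart by them. The part of depth in the absence of these peaks from the DMSO list was not tested.

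**Figure D5:**
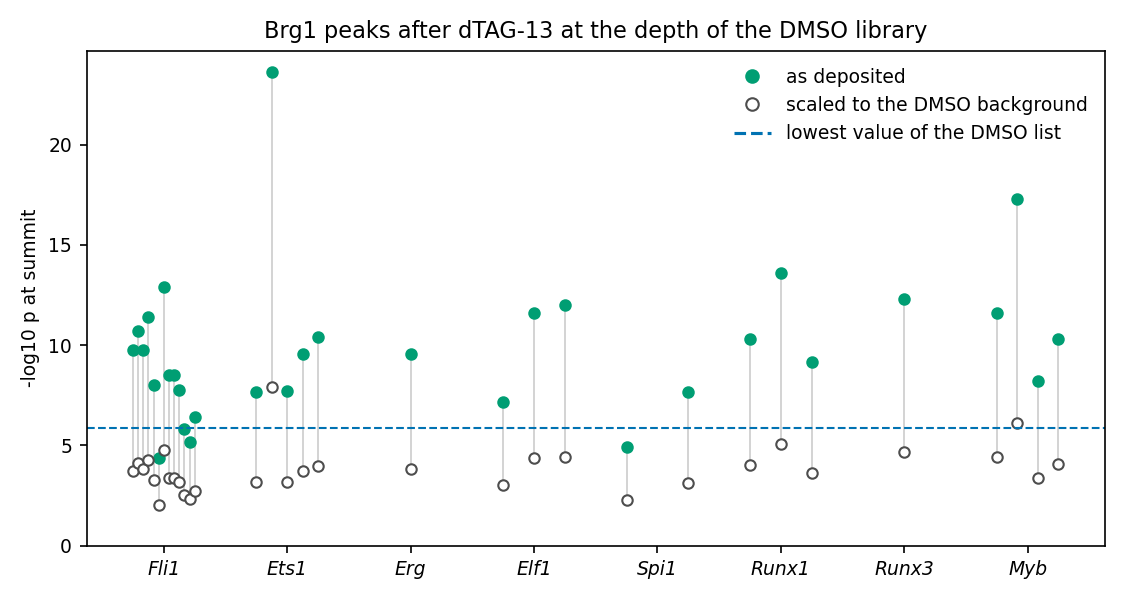
The −log10 p (vertical) of each of the 32 Brg1 peaks after dTAG-13, as deposited (filled) and scaled to the background of the DMSO library (open), by gene. The dashed line is the smallest value among the DMSO peaks, 5.89, and 1 scaled peak of Ets1 (7.93) and 1 of Myb (6.14) stay above it.

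Other genes of the families were counted the same way. They too were chosen with earlier results of these data known, so the interval given does not test enrichment. A list of 23, which holds further ETS genes, Runx2, the Runx partner Cbfb, Mybl1 and Mybl2, had 0 genes with a peak in the EBF1 lists and in Brg1 DMSO, and 7 with a Brg1 peak after dTAG-13 (30.4%, 13.2 to 52.9%), beside the 12.2% over all genes. Elk3 and Elk4, ETS factors that respond to MAP kinase signals, had 4 peaks each, with up to 25 and 23 fragments. Runx2, the Runx factor of bone, had 1 peak with 26 fragments at chr17:44777331-44777561. Its fold enrichment was 3.51, below the list median of 4.45, and its rank was 2498 of 5206. Etv5 had 2 peaks, and Etv3, Elf2 and Elf4 had 1 each, with 13 to 19 fragments at the highest. Cbfb, Ets2, the ETS factor beside Erg on chromosome 16, and Gabpa had none.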

How the data were processed

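ChIP-seq of EBF1 (line EBF1-dTAG_C) and Brg1 (line EBF1-dTAG_N) was taken from 4 peak lists, 1 library per group. Samples were grouped by their titles. The submitters' processing notes name MACS2 2.2.7.1, Bowtie2 2.3.5.1, deepTools 3.3.2 and SAMtools 1.10, and the builds GRCm38 and mm10. Which filters, settings and controls the authors used is not given in the sources used here. Each deposited list gives the authors' fold enrichment (a linear ratio at the summit over local background), −log10 p, −log10 q, the summit's offset from the peak start, and a score equal to 10 times the −log10 q without its decimals.

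Whole fragments at each summit were solved from fold enrichment, with a pseudocount of 1, and the Poisson p, and matched the deposited −log10 p within 0.02 for 100% of peaks, with EBF1 scaled by 0.863 and 0.818. Precision is limited by these fragments, with medians of 26 (DMSO) and 35 (dTAG-13) for EBF1 and of 13 and 18 for Brg1. Summits were assigned to protein-coding genes of RefSeq's GRCm38.p6, which matched all 10 members by symbol. That table gives no exons, so exons, introns and UTRs were not told apart. Overlap means at least 1 bp. Intervals are exact Clopper-Pearson and cover counting error only. No test between conditions was possible, and no p-value was computed. The scripts were tested on simulated data (Python 3.11.15, scipy 1.17.1).

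The members, the other family genes and the marker lists were chosen with earlier results of these data known. The result of 1 marker list is not reported here. All members and all of their peaks are named. The family genes named were to be those with peaks in 2 or more lists, or else the 5 with the most fragments, and the remaining ones were added after their values were seen. So was the choice of the 3 motifs, of the 5 kb joining distance, and of scaling to the DMSO background. The windows of 1 and 2 kb set beside the distances at Erg were not planned either. Alternatives covered the overlap rule, the −log10 q, the assignment distance and the length of the Brg1 dTAG-13 list.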

Additional observations from a re-analysis of the deposited data

Results flagged for a closer look

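The number of member peaks moved in opposite directions for the 2 antibodies. From DMSO to dTAG-13, EBF1 went from 1 to 0, a change of -1, and Brg1 from 1 to 32, a change of 31. Whether the antibodies differ was not tested: there is 1 library behind each count, and the EBF1 and Brg1 libraries come from separate lines. The Brg1 list as a whole was 22.2 times as long after dTAG-13.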

How the results depend on the processing

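The Brg1 dTAG-13 counts moved with the length of the list. With the −log10 q limit set to 5, the 32 member peaks became 18. They became 2 with the limit set to 10, and 2 with the list shortened to the DMSO length. The 8 members with a peak became 2 under both of the last settings, and the 7 other family genes became 2 with the limit of 5 and 0 under both of the last settings. The share of all protein-coding genes with a peak shrank as well, to 6.43%, 1.56% and 0.886%. With the limit of 10 the EBF1 and the Brg1 peak of Erg in DMSO were also below the limit, so these counts of peaks and of members became 0, and their overlaps have no value there. Among the alternatives chosen after seeing the data, scaling to the DMSO background left 2 peaks at 2 members, leaving out Fli1 gave 19 peaks, and counting summits within 5 kb as 1 group gave 18. The other 71 of 87 values stayed within 1.5 times. Many of these are counts of 0 that a stricter limit or a shorter distance could not raise, so the tally says little about them. Among them are the overlaps at Erg under a reciprocal overlap of 50% and for summits within 250 bp. Neither setting could give an overlap there, since the first is stricter than 1 bp and the closest summits are 602 bp apart. Assignment within 20 kb gave 25 member peaks, within 50 kb 29, and by the nearest bound for every summit 28 at 7 members. No paired analysis was possible because each group has 1 library.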
